A study of Mus musculus with 4 samples.

Results

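Oxidative phosphorylation couples electron transfer along the mitochondrial inner membrane to the making of ATP, and most of its subunits are encoded in the nucleus. The genes described here were taken by name from the gene lists of the deposited matrices: every symbol beginning with Nduf followed by A, B, C, S or V and a number, the 4 Sdh subunits, and every symbol beginning with Uqcr, with Cox and a number from 4 to 8, or with Atp5, leaving out pseudogene symbols. This took 84 of 27998 genes. Complex I has 35 of them, complex II 4, complex III 8, complex IV 20 and complex V 17, and they lie on 19 chromosomes. Ndufa4 and Ndufa4l2 were placed with complex IV, the complex to which the Ndufa4 protein belongs. Some symbols are wider than the complex they are named after: Cox7a2l is known as a factor that joins complexes III and IV, and Atp5sl, despite its name, as a factor in the assembly of complex I.

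The study compared immune cells infiltrating B16-GP33 melanomas, a mouse melanoma line that carries the GP33 antigen, in C57BL/6 mice. Tumour cells were placed under the skin of the flank, antibodies were given on days 8, 10 and 12, and tumours were taken on day 18. There were 4 libraries, 1 per group: control IgG (200 ug), anti-PD-1 (200 ug), anti-PSGL-1 (200 ug), and the combination of both antibodies (200 ug of each). PD-1 and PSGL-1 are receptors known to restrain T cells; all 4 groups carried the same tumour line, and cells were dissociated with enzymes and sorted as CD45.2-positive and propidium iodide-negative. The labels give neither the number of mice per library, nor their age or sex, so with 1 library a group a difference between treatments cannot be told apart from a difference between mice or preparations, and no p-value was computed. Where 4 values stand without labels they are in the order IgG, then the single antibodies (anti-PD-1 before anti-PSGL-1), then the combination. Intervals are exact 95% intervals that cover counting error only.

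Complex I passes electrons from NADH and complex II those from succinate into the chain, complex III hands them to cytochrome c, complex IV gives them to oxygen, and complex V uses the proton gradient to make ATP. Complexes I, III, IV and V also hold subunits encoded in the mitochondrial genome, whereas complex II is wholly nuclear and is at the same time an enzyme of the tricarboxylic acid cycle. T cells raise mitochondrial respiration together with glycolysis when they are activated, and chronically stimulated T cells in tumours are known to lose mitochondrial function.

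Promoters of respiratory chain genes are known for sites of the factors NRF1, ETS (such as GABP) and YY1. RefSeq promoter windows on GRCm38.p6, from 250 bases before to 50 after a start, matched 69 of the 84 genes and held 75 starts. The NRF1 letters, GCGCA and GCGC with any 1 base between them, searched on both strands, were in 18 of the 75 member windows (24.0%) and in 4.60% of all 32851 windows. The ETS letters CCGGAAG, also on both strands, were in 21.3% against 8.86%, and the YY1 letters AAGATGGCG in 12.0% against 1.40%. The SP1 letters GGGCGG were in 38.7% against 35.7%. Windows of the members were also richer in the CpG dinucleotide, with a median of 19 against 7, so matches to letters that hold CpG are not independent of base composition. The promoters of 3 members are shown over the 150 bases before the start, with matches to the NRF1 and ETS letters in capitals: Cox6a1, the widely expressed form of a complex IV subunit (chr5:115348959-115349108, minus strand), Sdhd, the membrane anchor of complex II (chr9:50603850-50603999, minus strand), and Ndufa4, the member whose level differed most between libraries in CD8 T-like cells (chr6:11907451-11907600, minus strand).
Cox6a1: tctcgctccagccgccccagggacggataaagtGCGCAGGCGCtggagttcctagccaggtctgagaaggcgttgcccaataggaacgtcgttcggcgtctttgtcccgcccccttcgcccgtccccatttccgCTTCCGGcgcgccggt
Sdhd: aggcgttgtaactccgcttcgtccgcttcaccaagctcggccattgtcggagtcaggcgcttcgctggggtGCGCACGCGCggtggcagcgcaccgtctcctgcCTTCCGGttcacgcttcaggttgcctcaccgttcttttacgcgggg
Ndufa4: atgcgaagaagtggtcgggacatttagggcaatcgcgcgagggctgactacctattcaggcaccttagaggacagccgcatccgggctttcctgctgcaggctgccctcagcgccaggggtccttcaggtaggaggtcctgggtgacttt
Cox6a1 and Sdhd each hold 1 match to each motif in this stretch and Ndufa4 holds none; a match describes the letters only.

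Kept cells numbered 8748 in the IgG, 5019 in the anti-PD-1, 6492 in the anti-PSGL-1 and 4228 in the combination library, and the 4 matrices held between 40913129 and 53303195 UMIs in all their barcodes. The median depth per kept cell differed, from 3674.5 UMIs with IgG to 8392 with the combination, and the median mitochondrial share was between 2.21% and 2.47%. A count of 56 barcodes was shared by at least 2 libraries. Cell classes were named from marker genes: Cd3e was detected in 81.9% to 96.0% of CD8 T-like cells and Csf1r in 66.6% to 77.9% of macrophage-like cells. Cells left without a class made up 12.6% of the IgG library and at most 0.755% of the others.

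The summed members made up 2.62% of UMIs in CD8 T-like cells of the IgG library, 2.60% with anti-PD-1, 2.69% with anti-PSGL-1 and 2.48% with the combination. NK-like cells had 2.12% in both the IgG and the anti-PD-1 library, 2.34% with anti-PSGL-1 and 2.23% with the combination. Summed over macrophage- and monocyte-like cells it was 2.11%, 1.86%, 2.28% and 1.92% in the same order of libraries. CD8 T-like cells were thus above NK-like cells and above the macrophages and monocytes within each of the 4 libraries, by ratios of 1.11 to 1.23 and of 1.18 to 1.40. Regulatory T-like cells (2.26% to 2.59%) lay closer to CD8 T-like cells than conventional CD4 T-like cells did (1.93% to 2.23%).

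Neutrophil-like cells had the lowest share of the 8 classes plotted, at 0.752% with IgG, 0.592% with anti-PD-1, 1.21% with anti-PSGL-1 and 0.950% with the combination. Within a library this was 0.322 to 0.545 of the level in monocyte-like cells. Neutrophils are known to rely mainly on glycolysis. These cells were few and shallow, with 52 cells in the anti-PD-1 library and median depths of 1322 to 2231 UMIs with IgG and anti-PSGL-1. Plasmacytoid dendritic-like cells, of which the IgG library held 185, stood at 2.35% there.

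**Figure D1:**
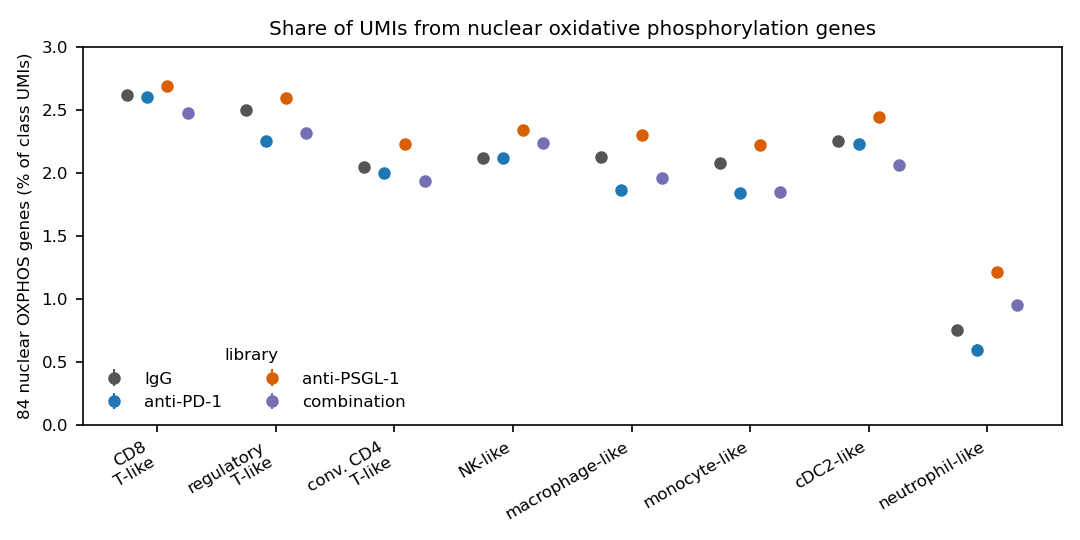
Share of UMIs (y axis, percent of all UMIs of the class) from the 84 members in 8 cell classes (x axis), 1 point per library with its exact 95% interval. CD8 T-like cells sit between 2.48% and 2.69%, and neutrophil-like cells between 0.592% and 1.21%.

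Within a class the share also varied between clusters. Among CD8 T-like cells, the naive-like cluster, marked by Lef1 and with Dapl1, Ccr7 and the mast cell protease genes Mcpt4 and Cma1 among its leading genes, had 1.58%, 1.5%, 1.80% and 1.62%. The cluster of dividing cells had 2.87%, 2.71%, 2.91% and 2.56%. The cluster led by granzyme C to F genes had 2.62%, 2.61%, 2.71% and 2.50%. The naive-like cluster was thus below the dividing and granzyme clusters in each library, and its share of the class fell from 20.3% of CD8 T-like cells with IgG to 6.02%, 11.6% and 1.07% with the 3 treatments. Among macrophages and monocytes, the cluster led by Arg1, an arginine-degrading enzyme, had the lowest share (1.61%, 1.48%, 1.79% and 1.47%), and the cluster led by C1q complement genes the highest (2.83%, 2.63%, 2.95% and 2.79%). These 2 macrophage clusters did not overlap in any library.

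Of the members, 75 reached 20 CPM, the UMIs of a gene relative to all UMIs of its class, in at least 1 library of the CD8 comparisons with IgG, and 74 in the macrophage and monocyte comparisons. A member is called higher or lower when it was at least 25% above or at least 20% below the other library, the same fold in either direction. The share of all genes beside a count belongs to the comparison without centring or thinning. Counts after centring, thinning or leaving out genes stand without such a share and are not read as a result about the members. The 3 comparisons with IgG share that library. CPM is not scaled to transcript length, so levels are compared between libraries and cell classes but not between genes. Many of these genes have processed pseudogenes, and reads shared with a copy may be lost or split in the counting.

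**Figure D2:**
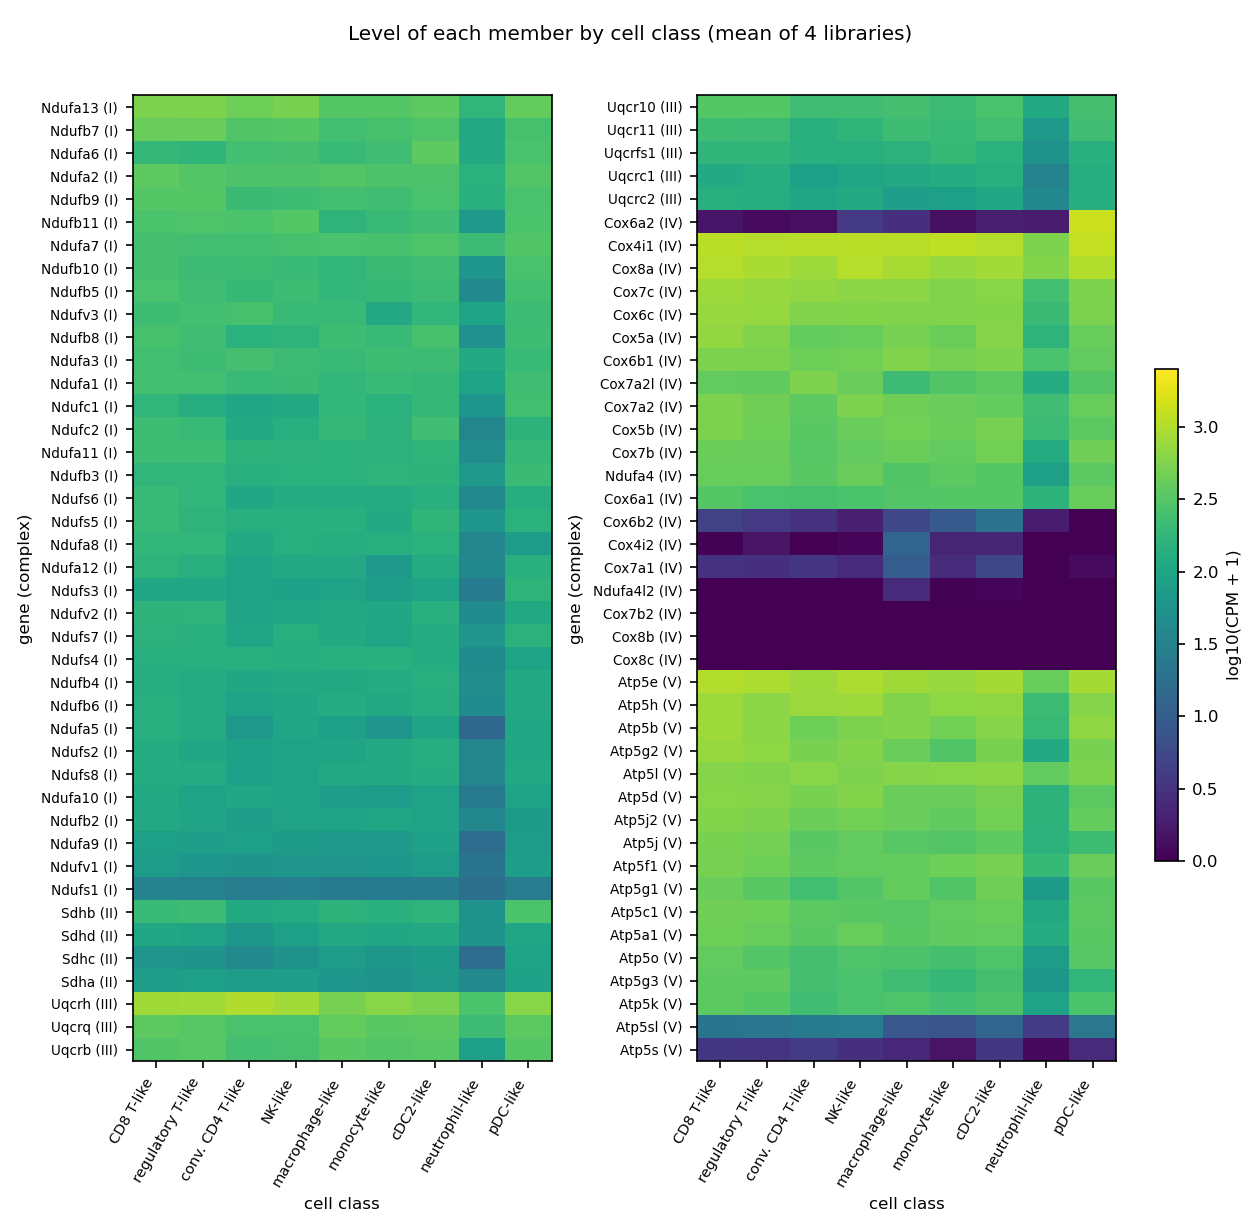
Level of each of the 84 members (rows, with the complex in parentheses) in 9 cell classes (columns) as log10(CPM + 1) of the mean over 4 libraries. Cox6a2 (complex IV) is bright in the plasmacytoid dendritic-like column, where it stood at 1712 CPM with IgG, and dark in the CD8 T-like column.

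With anti-PD-1, the list as a whole in CD8 T-like cells stood at 0.993 (0.988 to 0.998) of the IgG level. This direction was not stable, since the ratio was 1.03 with every cell thinned to 2000 UMIs and 1.04 with dividing cells left out. No member was higher and 4 of 75 were lower, while 9.40% of the 5360 genes tested were higher and 8.15% lower. With thinned cells, 3 members were higher and 5 lower. The median member differed by 0.01 on the log2 scale and the median of all genes by 0.02. The 4 members were Ndufa4, Atp5k, Ndufa3 and Atp5sl. Atp5k, a small subunit at the dimer interface of the ATP synthase, was at 371 CPM with IgG, 254 with anti-PD-1, 462 with anti-PSGL-1 and 289 with the combination, a ratio of 0.683 (0.651 to 0.717) for anti-PD-1. Ndufa3, an accessory subunit of complex I, was at 247, 182, 317 and 196 CPM in the same order. Both genes were thus lower with anti-PD-1 and with the combination, and higher with anti-PSGL-1, than with IgG. Cox5a, a nuclear subunit of complex IV, went the other way, at 657, 802, 561 and 769 CPM, with a ratio of 1.22 (1.18 to 1.26) for anti-PD-1 that is short of the 25% mark. Ndufs5, an accessory subunit of complex I, was likewise just below the mark with anti-PD-1 (179 CPM with IgG and 220 with anti-PD-1).

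With anti-PSGL-1 the list stood at 1.03 (1.02 to 1.03) of IgG in CD8 T-like cells, and 7 of 75 members were higher and 2 lower against 4.57% and 4.44% of the 5295 genes tested. The median member was at -0.05 and the median gene at -0.04 on the log2 scale, so the sum and the median of the members differed in sign. Centred on the median of all genes, 13 members were higher and none lower, and 10 were higher and 1 lower when mitochondrially encoded and ribosomal protein genes were left out of the total. The shares of 4.57% and 4.44% do not apply to these 2 settings, so these counts are not read against all genes. Ndufa1, a small accessory subunit of complex I, was at 221 CPM with IgG, 216 with anti-PD-1, 312 with anti-PSGL-1 and 205 with the combination. Atp5e, the epsilon subunit of the ATP synthase, was at 1021, 883, 1347 and 841 CPM. In both genes the anti-PSGL-1 library alone stood above IgG, at ratios of 1.41 (1.34 to 1.49) and 1.32 (1.29 to 1.35). The 2 lower members were Ndufv2 and Ndufa8 of complex I; Ndufv2, an iron-sulfur subunit of the NADH-oxidising module, was at 160, 170, 124 and 169 CPM and Ndufa8 at 184, 184, 146 and 195 CPM.

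With the combination the list stood at 0.947 (0.943 to 0.952) of IgG in CD8 T-like cells. No member was higher and 7 of 75 were lower, against 11.0% and 7.13% of 5386 genes. The median member differed by -0.05 and the median gene by 0.05. Uqcr10, a small subunit of complex III, was at 343 CPM with IgG, 275 with anti-PD-1, 396 with anti-PSGL-1 and 241 with the combination, a ratio of 0.705 (0.674 to 0.737) for the combination. Uqcrh, the hinge subunit that helps complex III bind cytochrome c, was at 855, 789, 890 and 744 CPM. Atp5f1, a stalk subunit of the ATP synthase, was at 472, 542, 439 and 558 CPM and was the member farthest above IgG by its interval, at 1.18. The list ratio was 1.00 with every cell thinned to 2000 UMIs, 0.996 with dividing cells left out and 0.904 without the naive-like cluster. Thinning also gives each cell equal weight and leaves out cells below 2000 UMIs. The part of depth alone was not tested. With thinned cells 7 members were higher and 4 lower.

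Set against the single antibodies, the combination library stood at 0.954 of anti-PD-1 and 0.921 of anti-PSGL-1 in CD8 T-like cells. Against anti-PD-1, no member was higher and 3 of 74 were lower (5.55% and 3.78% of all genes tested), the lower members being Cox6a1 (351 CPM with anti-PD-1 and 279 with the combination), Ndufs5 (220 and 176 CPM) and Ndufb2. Against anti-PSGL-1, 12 of 74 were higher and 21 lower (18.1% and 8.68% of all genes tested). Centred on the median of all genes, 2 were higher and 25 lower, centred by length 3 and 15, and with thinned cells 18 and 18; the median member stood at 1.02 of anti-PSGL-1, above 1 where the sum was below. Cox5a was at 1.37 and Ndufv2 at 1.36 of the anti-PSGL-1 level, while Uqcr10 was at 0.609 and Ndufa4 at 0.569.

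In macrophage- and monocyte-like cells the list was lower with anti-PD-1, at 0.882 (0.877 to 0.887) of IgG. No member was higher and 12 of 74 were lower, against 17.6% and 12.8% of the 5031 genes tested. The median member differed by -0.17 on the log2 scale and the median gene by 0.01, and 66 of the 74 members lay below the IgG level. Centred by length, 1 member was higher and 4 lower. Complexes I, III, IV and V stood at 0.880, 0.875, 0.906 and 0.855 of IgG, whereas complex II stood at 0.997 (0.959 to 1.04). Atp5k was at 293 CPM with IgG, 191 with anti-PD-1, 384 with anti-PSGL-1 and 230 with the combination, and Ndufa3 at 216, 153, 290 and 171 CPM. Both had the same order of libraries as in CD8 T-like cells. Atp5j, the coupling factor 6 of the ATP synthase, and Cox8a, a small subunit of complex IV, were the members farthest above IgG by their intervals, at 1.09 and 1.07.

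With anti-PSGL-1 the list in these cells stood at 1.08 (1.07 to 1.08) of IgG, with 17 of 74 members higher and 1 lower against 6.63% and 5.66% of 4980 genes. The median member was at 0.01 and the median gene at -0.02. Centred by length, 6 members were higher and 2 lower. Cox7c, a small subunit of complex IV, was at 623 CPM with IgG, 506 with anti-PD-1, 881 with anti-PSGL-1 and 500 with the combination. Cox6c, also of complex IV, was at 565, 473, 768 and 462 CPM. The anti-PSGL-1 library alone was above IgG in both, at ratios of 1.41 and 1.36. The lower member was Ndufs8, an iron-sulfur subunit of complex I, at 124, 102, 97.9 and 129 CPM.

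With the combination the list in macrophages and monocytes stood at 0.910 (0.905 to 0.916) of IgG, with no member higher and 7 of 74 lower against 11.8% and 5.78% of 5038 genes. The median member was at -0.11 and the median gene at 0.05. With thinned cells, 2 members were higher and 6 lower. Uqcr11, a small subunit of complex III, was at 222 CPM with IgG, 158 with anti-PD-1, 296 with anti-PSGL-1 and 166 with the combination, and Atp5e was at 820, 624, 1086 and 632 CPM. Both were lower in the 2 libraries that received anti-PD-1 and higher with anti-PSGL-1. Against the anti-PD-1 library, the combination had 6 of 74 members higher and none lower (10.6% and 9.87% of all genes tested); Cox7a2l was at 1.33 and Ndufa10 at 1.34 of the anti-PD-1 level. Against anti-PSGL-1 it had 4 higher and 23 lower (15.5% and 8.90%), the higher members being Sdhb, Ndufs3, Ndufs8 and Ndufa8, with Cox7c at 0.568 and Uqcr11 at 0.560.

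NK-like cells had more of the members with anti-PSGL-1, at 1.11 (1.09 to 1.12) of IgG, while anti-PD-1 stood at 1.00 (0.987 to 1.01) and the combination at 1.05 (1.04 to 1.07). With anti-PSGL-1, 18 of 75 members were higher and none lower, against 11.3% and 21.6% of the genes tested, and the median member was at 0.07 on the log2 scale with the median gene at -0.09. Complex II stood at 1.19, 1.13 and 1.29 of IgG in NK-like cells with anti-PD-1, anti-PSGL-1 and the combination, and complex IV at 1.02, 1.11 and 1.01. Short transcripts were above longer ones with anti-PSGL-1, with median log2 ratios of 0.30 and 0.03.

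By summed UMIs, neutrophil-like cells differed most between libraries. The list stood at 0.787 (0.722 to 0.857), 1.61 (1.56 to 1.66) and 1.26 (1.21 to 1.32) of IgG with the 3 treatments. With anti-PSGL-1, 66 of 73 members were higher and none lower, against 46.0% and 19.8% of the genes tested, and the median member was at 0.74 and the median gene at 0.25 on the log2 scale. All 15 tested members of complex V and all 8 of complex III were higher there. The cells numbered 464, 52, 309 and 113 in the 4 libraries with median depths of 1322, 1768.5, 2231 and 2304 UMIs. A cluster of 100 cells within this class had a median of 8177 UMIs and also passed 10 of 11 monocyte markers. The sums weight cells by their UMIs, and the median share per cell differed less, at 0.620%, 0.555%, 0.763% and 0.657%. The part of depth, of that cluster and of RNA from other cells in these ratios was not tested.

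As a sum, complex II differed from the other complexes, which hold all 31 members with a transcript below 600 bases. Sdhb, its iron-sulfur subunit, was, in CD8 T-like cells, at 194 CPM with IgG, 213 with anti-PD-1, 179 with anti-PSGL-1 and 227 with the combination. Sdhd was at 101, 107, 95.2 and 117 CPM, and Sdhc, the other membrane subunit, at 54.3, 61.6, 52.4 and 61.8 CPM. All 3 were highest in the combination library and lowest in the anti-PSGL-1 library, Sdhc by less than its counting interval over anti-PD-1. Sdha, the flavoprotein that oxidises succinate, had another order, at 87.3, 79.1, 74.1 and 81.1 CPM. Summed, complex II stood at 1.11 (1.07 to 1.16) of IgG with the combination, while complexes I, III, IV and V stood at 0.970, 0.877, 0.906 and 0.977.

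The same held in macrophages and monocytes, where complex II stood at 1.12 (1.08 to 1.17) of IgG with the combination and complexes I, III, IV and V at 0.923, 0.866, 0.891 and 0.921. Sdhb there was at 151, 154, 125 and 177 CPM, highest with the combination and lowest with anti-PSGL-1. Sdha was at 56.2, 57.1, 59.4 and 61.5 CPM, Sdhc at 70.8, 70.2, 68.2 and 74.6 CPM, and Sdhd at 109, 105, 102 and 122 CPM. All 4 subunits were highest with the combination, and Sdha alone was not lowest with anti-PSGL-1. None of the 4 passed the mark for a call against IgG in either class. Complex II stood above 1 with the combination under each scaling and choice of cells tried for it, at 1.04 to 1.20 in CD8 T-like cells and 1.08 to 1.15 in macrophages and monocytes, whereas complexes I and V of CD8 T-like cells passed to 1.04 and 1.04 with thinned cells. The transcripts of the 4 Sdh genes are between 1142 and 3171 bases long, which bears on the pattern by length described next. Centring by length was not among the settings tried for complex II. Some longer members of other complexes were also above IgG with the combination in all 7 classes compared below. These include Ndufa9 (1.07 to 1.36), Uqcrc2 (1.00 to 1.32) and Atp5f1 (1.03 to 1.29). Of 48 members of 600 bases or more, 6 were above IgG in all 7, Sdhb and Sdhd among them, and 5 were below.

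The ratios with anti-PSGL-1 varied with transcript length. Of the 84 members, 31 have a principal transcript below 600 bases, and the median length is 720.5 bases against 2293.5 over the 21562 genes with a length. In CD8 T-like cells the median log2 ratio of anti-PSGL-1 to IgG was 0.20 for the 26 tested members below 600 bases, of which 21 were above 0. It was -0.13 for the 49 longer members, of which 38 were below 0. The medians in macrophages and monocytes were 0.32 (23 of 26 above 0) and -0.06.

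With the combination the sign of this difference was opposite. The short members of CD8 T-like cells had a median log2 ratio to IgG of -0.19, with none of 26 above 0, and the longer members 0.07. Among macrophages and monocytes they were -0.25, again with none of 26 above 0, and -0.00. With anti-PD-1 the short members were at -0.04 in CD8 T-like cells and -0.23 in macrophages and monocytes, and the longer members at 0.02 and -0.16.

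Genes outside the list varied with length in the same directions. Cytosolic ribosomal protein and mitochondrially encoded genes were left out of these medians. The remaining genes below 600 bases had a median log2 ratio of anti-PSGL-1 to IgG of 0.15 in CD8 T-like cells and 0.16 in macrophages and monocytes. Those of 600 bases or more had -0.05 and -0.02. With the combination the short genes were at -0.13 and -0.20 and the longer ones at 0.05 and 0.06. When each gene was centred on the median of other genes of similar length, an alternative chosen after seeing the data, the median member stood at 0.997 of IgG with anti-PD-1, 0.982 with anti-PSGL-1 and 0.977 with the combination in CD8 T-like cells. The values were 0.979, 1.03 and 1.00 in macrophages and monocytes. That centring used genes outside the list with ribosomal protein and mitochondrially encoded genes included. Without the members below 600 bases, the list ratios for anti-PSGL-1 were 0.950 and 0.989, both now below 1, and that for the combination in CD8 T-like cells was 1.01. Differences of library preparation, fragment size or read length were not tested as sources of this pattern.

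**Figure D3:**
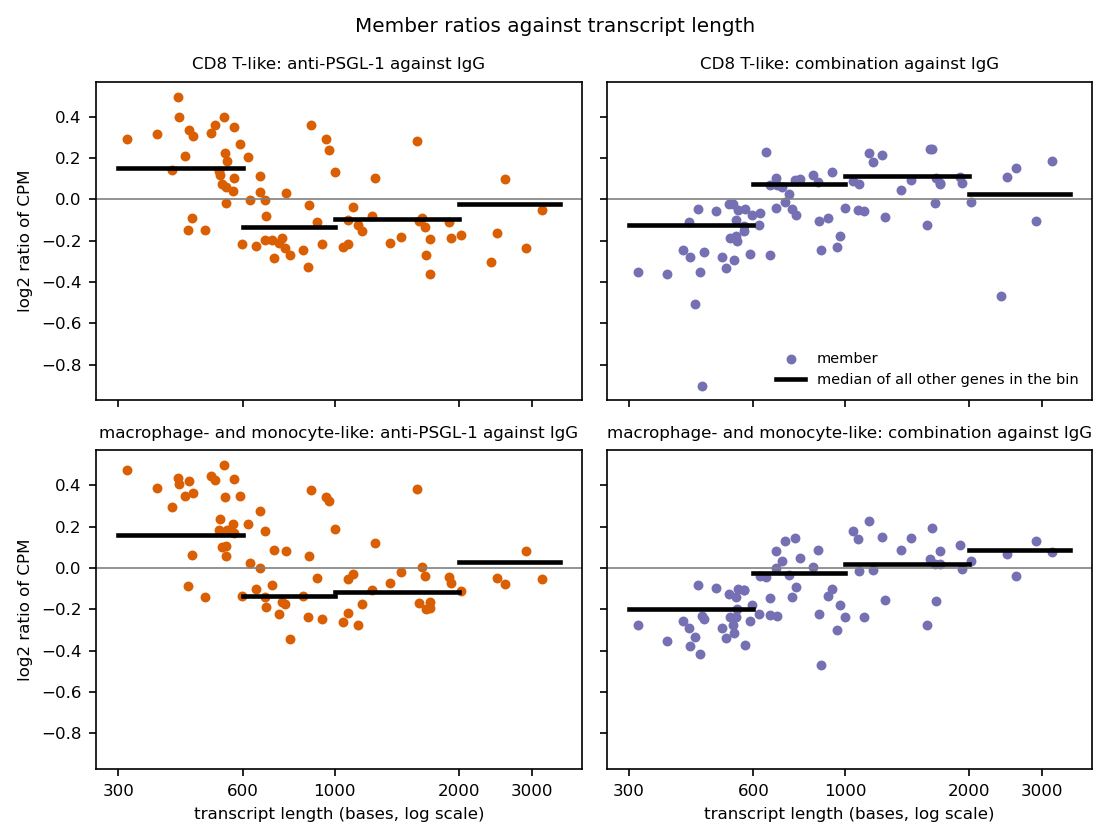
Log2 ratio of CPM to IgG (y axis) against transcript length in bases (x axis, log scale) for the tested members (points), with the median of all other genes in each length bin (black lines), for anti-PSGL-1 (left) and the combination (right) in CD8 T-like cells (top) and macrophages and monocytes (bottom). The black lines leave out cytosolic ribosomal protein and mitochondrially encoded genes. Points below 600 bases lie mostly above 0 with anti-PSGL-1 and all below 0 with the combination.

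The direction was compared across classes. Over 7 classes (CD8, conventional CD4 and regulatory T-like, NK-like, macrophage-like, monocyte-like and cDC2-like), 28 of 74 members were above IgG with anti-PSGL-1 in every class (37.8%) and 15 were below in every class (20.3%). The same held for 6.72% and 12.8% of the 3466 other genes tested in all 7. Ribosomal protein and mitochondrially encoded genes are among the other genes here. Split by length, 76.9% of members below 600 bases were above in every class beside 63.3% of the 109 other short genes, and 16.7% of longer members beside 4.72% of other longer genes. Of the 28, 20 have a transcript below 600 bases, and of the 15, 1 does. Ndufa1 had ratios of 1.31 to 1.73 over the 7 classes, Atp5e of 1.29 to 1.47, and Cox7c of 1.22 to 1.43. With the combination 6 members were above IgG in every class, none of them short, and 21 were below (28.4%), 16 of them short, beside 5.55% and 3.91% of other genes. Among short genes 61.5% of members and 43.0% of the others were below in every class. With anti-PD-1, no member was above IgG in every class and 10 were below (13.5%), beside 6.77% and 6.79% of other genes. The 7 classes come from the same libraries and are not replicates of a treatment.

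Ndufa4 departed from the list most clearly. Its protein is a subunit of complex IV that a paralogue, encoded in the mouse by AA467197, can replace during inflammation. AA467197 lies outside the list and was chosen after its values were seen. Ndufa4 in CD8 T-like cells was at 523 CPM with IgG, 329 with anti-PD-1, 492 with anti-PSGL-1 and 280 with the combination. AA467197 was at 57.1, 332, 75.2 and 323 CPM. The 2 libraries that received anti-PD-1 were thus low for Ndufa4 and high for its paralogue, and the other 2 the reverse. The ratios to IgG were 0.629 (0.603 to 0.655), 0.940 (0.905 to 0.976) and 0.535 (0.515 to 0.555) for Ndufa4. For AA467197 they were 5.81 (5.31 to 6.38), 1.32 (1.18 to 1.47) and 5.67 (5.18 to 6.21).

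The other classes did not share that pattern in full. In NK-like cells Ndufa4 was at 444 CPM with IgG, 457 with anti-PD-1, 411 with anti-PSGL-1 and 372 with the combination, and AA467197 at 19.2, 30.4, 72.5 and 151 CPM. In regulatory T-like cells Ndufa4 was at 483, 362, 444 and 350 CPM and AA467197 at 21.3, 57.4, 44.7 and 113 CPM. Cd8a was detected in 6.68%, 9.66%, 22.0% and 29.3% of these regulatory T-like cells. The part of RNA from CD8 T cells in their values was not tested. In conventional CD4 T-like cells Ndufa4 was at 350, 373, 352 and 272 CPM and AA467197 at 85.4, 25.5, 79.8 and 81.4 CPM. In macrophage-like cells Ndufa4 was at 339, 235, 341 and 282 CPM and AA467197 at 136, 258, 223 and 146 CPM. The combination library had less Ndufa4 than IgG in each of these 4 classes. Of the 4, the anti-PD-1 library had less in regulatory T-like and macrophage-like cells. It also stood at 0.857 (0.792 to 0.929) in monocyte-like and 0.820 (0.744 to 0.903) in cDC2-like cells. AA467197 there was at 2.17 and 1.70 with anti-PD-1, and at 1.95 and 1.81 with anti-PSGL-1. In migratory dendritic-like cells Ndufa4 stood at 0.540 (0.369 to 0.772) with anti-PD-1. The interval held 1 in cDC1-like, B-like, plasmacytoid dendritic-like and neutrophil-like cells.

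Clusters of CD8 T-like cells differed in both genes. In the cluster led by granzyme C to F genes Ndufa4 was at 332, 223, 264 and 175 CPM and AA467197 at 297, 519, 340 and 526 CPM. This cluster made up 5.14% of CD8 T-like cells with IgG, 39.1% with anti-PD-1, 5.51% with anti-PSGL-1 and 34.8% with the combination. Within it Ndufa4 stood at 0.671 of IgG with anti-PD-1 and 0.526 with the combination, so the difference was present inside this cluster. In the dividing cluster Ndufa4 was at 623, 373, 580 and 317 CPM and AA467197 at 47.8, 273, 70.0 and 271 CPM. A further pair of CD8 clusters differed less with anti-PD-1. In the cluster led by Ltf, Tff1 and Gldc, with 35.8% of CD8 T-like cells in the IgG library, Ndufa4 was at 556, 531, 511 and 404 CPM and AA467197 at 52.6, 85.9, 60.5 and 59.8 CPM. Ndufa4 there stood at 0.955 (0.883 to 1.03) of IgG for anti-PD-1, while the combination library had 0.726 (0.671 to 0.785). The cluster led by Gzmk, a granzyme gene, and Cd8b1, a chain of the CD8 receptor, held 19.0% of CD8 T-like cells in the IgG library and had Ndufa4 at 484, 424, 452 and 417 CPM and AA467197 at 31.9, 32.9, 49.2 and 63.1 CPM. Its ratios for Ndufa4 were 0.876 (0.746 to 1.03) and 0.861 (0.771 to 0.963). The difference with anti-PD-1 thus stood outside counting error in the granzyme C to F and dividing clusters, whereas the interval held 1 in the other CD8 clusters. Among these, a small cluster led by the heat shock genes Hspa1a and Hspb1 held 39 cells with IgG and 43 with anti-PD-1. There Ndufa4 stood at 0.694 (0.467 to 1.04) of IgG with anti-PD-1, and AA467197 at 5.67 (2.77 to 13.5). That Ndufa4 interval is wide and does not show the lack of a difference. In the naive-like cluster Ndufa4 was at 287, 284, 323 and 329 CPM and AA467197 at 3.92 to 22.1 CPM, and its Ndufa4 ratios to IgG were 0.989 with anti-PD-1 and 1.15 with the combination. Among macrophages and monocytes, the Arg1 cluster had the least Ndufa4 (149, 115, 182 and 121 CPM) and the most AA467197 (190, 285, 282 and 265 CPM) when set beside the C1q cluster (539, 390, 466 and 392 CPM, and 38.3, 126, 102 and 74.5 CPM).

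The 2 genes were also set side by side cell by cell, with every cell thinned to 2000 UMIs and shallower cells left out. Cells with a UMI of AA467197 made up, among CD8 T-like cells, 7.87% with IgG, 34.1% with anti-PD-1, 10.2% with anti-PSGL-1 and 29.4% with the combination, leaving out 62, 15, 31 and 22 cells; unthinned the shares were 17.7%, 61.8%, 26.4% and 55.8%. Ndufa4 was at 393, 213, 307 and 169 CPM in those cells and at 466, 405, 449 and 366 CPM in the cells without one. In macrophages and monocytes it was at 207, 181, 215 and 177 CPM with, and 357, 259, 375 and 299 CPM without. Ndufa4 was lower in the cells with an AA467197 UMI in 8 of 8 class and library pairs, with intervals apart in 7. Cells were pooled over clusters that differ in both genes. Whether the difference holds within a cluster was not tested. The other members did not fall with it in CD8 T-like cells, where they made up 2.50%, 2.54%, 2.66% and 2.48% of UMIs in cells with an AA467197 UMI and 2.33%, 2.38%, 2.45% and 2.32% in cells without. In macrophages and monocytes the other members were lower beside Ndufa4 in all 4 libraries, at 1.89%, 1.66%, 2.03% and 1.66% in cells with an AA467197 UMI against 2.05%, 1.81%, 2.22% and 1.91% in cells without.

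**Figure D4:**
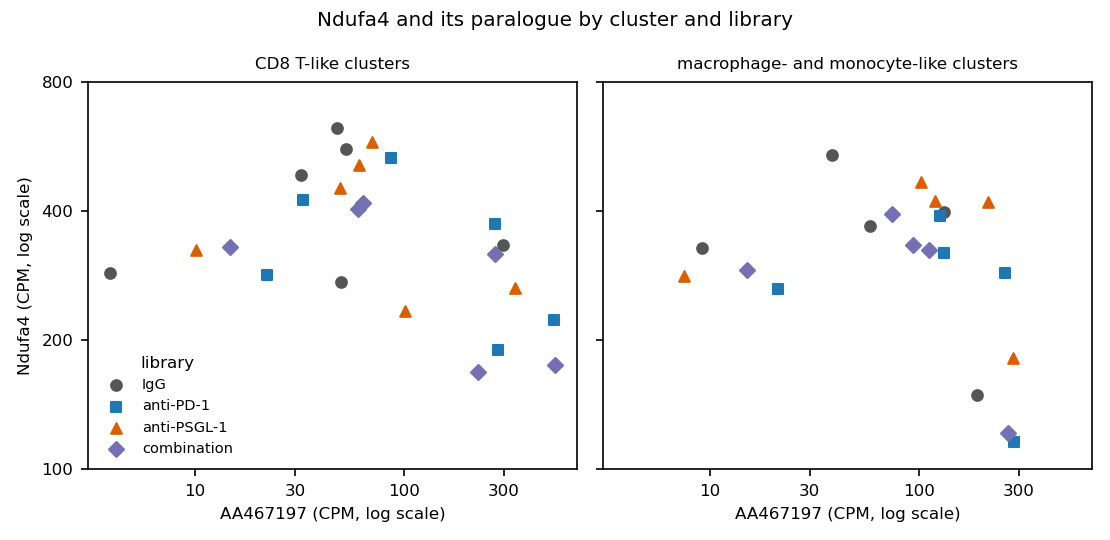
Level of Ndufa4 (y axis, CPM, log scale) against its paralogue AA467197 (x axis, CPM, log scale) for clusters of CD8 T-like cells (left) and of macrophages and monocytes (right), 1 point per cluster and library. The granzyme cluster of CD8 T-like cells in the combination library sits at 526 CPM of AA467197 and 175 CPM of Ndufa4.

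Several members are paralogous forms of 1 subunit, and the tissue-restricted forms were found in few classes. Cox6a2, the form known from heart and skeletal muscle, was detected in 176 of 185 plasmacytoid dendritic-like cells with IgG (95.1%, exact binomial 91.0% to 97.8%). It was detected in 23 of 26 such cells with anti-PD-1, 11 of 11 with anti-PSGL-1 and 2 of 2 with the combination. Its level there was 1712, 1268 and 2229 CPM in the first 3 libraries, with too few cells for a level in the combination library. In CD8 T-like cells it was detected in 0.281%, 0.0847%, 0.482% and 0.113% of cells and, likewise rarely, in macrophage-like cells in 0.698% to 1.19%, at median depths of 4777 to 10687 and 4812 to 8443.5 UMIs, against 4818 in the plasmacytoid dendritic-like cells of the IgG library. Cox6a1, the ubiquitous form, was at 275 CPM in the plasmacytoid dendritic-like cells with IgG, where CD8 T-like cells had 311 CPM.

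Cox4i2, the form of subunit 4 known to be raised by low oxygen, was detected in 3.76% of macrophage-like cells with IgG, 6.08% with anti-PD-1, 4.06% with anti-PSGL-1 and 7.24% with the combination, at median depths of 4812, 6354, 6662 and 8443.5 UMIs. Its level was 11.4, 16.0, 6.90 and 13.2 CPM. Among CD8 T-like cells 0, 1, 1 and 0 had a UMI of it; the count of 0 in 1771 cells of the combination library allows a share of cells with a UMI of up to 0.169% (3 counts), and sets no limit on cells that express the gene below detection. Cox4i1, the common form, was at 1174, 980, 1060 and 1079 CPM in the same macrophage-like cells. Ndufa4l2, also known as a low-oxygen gene, had 2, 28, 38 and 5 UMIs in macrophage-like cells, and Cox7b2, Cox8b and Cox8c had no UMI in any class.

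The c-ring of the ATP synthase is encoded by 3 genes whose mature proteins are identical. The CD8 T-like cells had Atp5g1 at 440, 462, 379 and 417 CPM. There Atp5g2 was at 777, 753, 700 and 752 CPM, and Atp5g3 at 380, 358, 312 and 377 CPM. Macrophages and monocytes had Atp5g1 at 407, 344, 370 and 360 CPM and Atp5g2 at 408, 344, 384 and 386 CPM. The level of Atp5g2 was thus higher in CD8 T-like cells than in macrophages and monocytes in each library, while that of Atp5g1 differed less.

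Dividing cells were compared with the others inside each library, taking cells with a UMI of the proliferation genes Mki67 or Top2a. In CD8 T-like cells the members made up 2.82%, 2.67%, 2.84% and 2.53% of UMIs in dividing cells and 2.36%, 2.44%, 2.43% and 2.35% in other cells. The share was higher in dividing cells in 4 of 4 libraries, by ratios of 1.19 (1.18 to 1.20), 1.09 (1.08 to 1.10), 1.17 (1.16 to 1.18) and 1.08 (1.07 to 1.08). With IgG, 42 of 75 members were higher and 3 lower in dividing cells, against 31.6% and 19.7% of genes tested. With anti-PD-1 it was 10 and 2 of 74 against 23.6% and 14.5%, with anti-PSGL-1 30 and 2 of 75 against 28.7% and 15.5%, and with the combination 14 and 4 of 75 against 24.6% and 16.8%. The members' share of higher calls was above that of all genes with IgG and anti-PSGL-1 and below it in the 2 libraries that received anti-PD-1. Dividing cells were also deeper, with median depths of 8712 to 14990.5 UMIs against 3783.5 to 6973.

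Members differed in how they went with division. Of 74 tested in every library, 59 were above 1 in all 4 and 4 were below 1 in all 4. The share of all genes on the same side, or past the mark, in every library was not computed in either cell class. These counts are therefore not read as a trait of the members. Ndufa5, a subunit of complex I, was at 162, 138, 198 and 124 CPM in dividing and 92.8, 103, 119 and 78.6 CPM in other CD8 T-like cells. Cox7a2l, counted here with complex IV, was at 327, 311, 340 and 350 CPM in dividing and 520, 444, 459 and 516 CPM in other cells. Ndufa5 was thus more than 25% above and Cox7a2l more than 20% below in each of the 4 libraries. In all, 2 members were at least 20% below in every library, Cox7a2l and a member of complex I. The others below 1 in all 4 were Ndufa6, Ndufv3 and Uqcrh, and the others at least 25% above in all 4 were Atp5b, Ndufa12, Ndufc2, Uqcr10 and Uqcr11; those members were singled out after their values were seen. Complex II was at 1.35, 1.24, 1.37 and 1.22 and complex III at 1.11, 1.03, 1.10 and 0.988.

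In macrophages and monocytes the list was higher in dividing cells by 1.18, 1.12, 1.07 and 1.13 in the 4 libraries. There 27 of 74, 17 of 75, 7 of 74 and 12 of 74 members were higher, against 34.1%, 19.2%, 18.8% and 17.7% of all genes tested. None was lower in any of the 4, against 17.5%, 11.2%, 8.89% and 12.1%. Ndufa5 and Sdhc were at least 25% above in all 4 libraries. The mitochondrially encoded subunits differed between the classes, at 0.881, 0.972, 0.961 and 1.01 in CD8 T-like cells, set beside 1.27, 1.17, 1.10 and 1.16 in macrophages and monocytes, whereas the mitochondrial ribosome was higher in dividing cells of both (1.33, 1.23, 1.26 and 1.24, and 1.28, 1.19, 1.12 and 1.15).

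**Figure D5:**
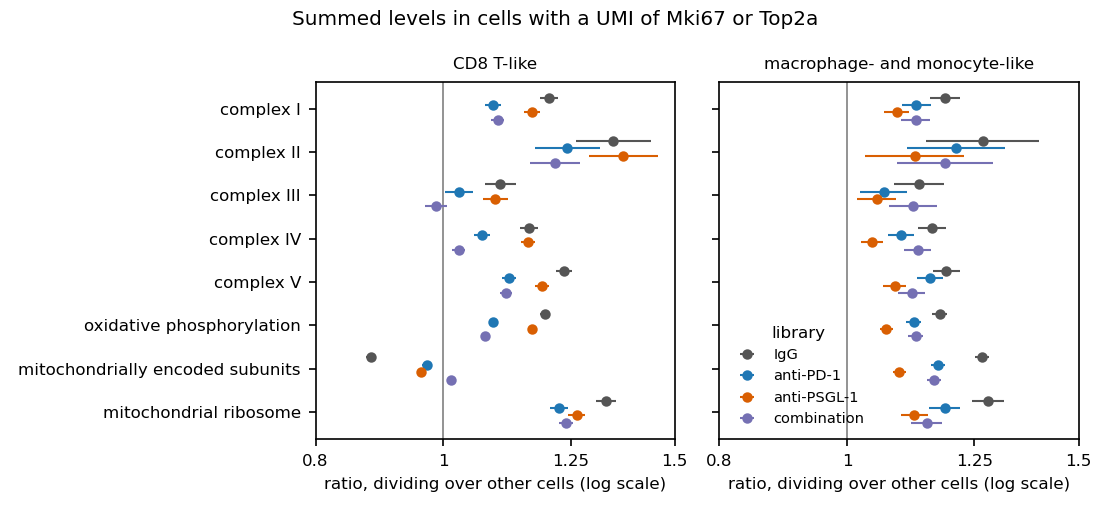
Ratio of summed levels in dividing over other cells (x axis, log scale) for each complex, the whole list, the mitochondrially encoded subunits and the mitochondrial ribosome (y axis), 1 point per library with its exact 95% interval, in CD8 T-like cells (left) and macrophages and monocytes (right). The whole list lies between 1.08 and 1.19 on the left and between 1.07 and 1.18 on the right.

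Other genes of respiration were taken from lists chosen with earlier results of these data known. The 13 subunits encoded in the mitochondrial genome made up 2.83% of UMIs in CD8 T-like cells with IgG, 2.64% with anti-PD-1, 2.67% with anti-PSGL-1 and 2.38% with the combination, and 0, 2 and 0 of 13 were higher and 4, 0 and 6 lower than IgG. Over all genes tested 9.40%, 4.57% and 11.0% were higher and 8.15%, 4.44% and 7.13% lower in these 3 comparisons. The 2 higher genes with anti-PSGL-1 were mt-Nd3, a subunit of complex I (399.6 CPM with IgG and 593 with anti-PSGL-1), and mt-Atp8, a subunit of the ATP synthase (63.8 and 95.5 CPM). The 13 subunits stood at 0.853, 1.01 and 0.963 of IgG in macrophages and monocytes. The mitochondrial ribosome stood at 1.04, 0.934 and 1.00 of IgG in CD8 T-like cells and at 0.838, 0.980 and 0.906 in macrophages and monocytes, where 1 of 62 tested genes was higher and 20 were lower with anti-PD-1, against 17.6% and 12.8% of all genes tested. Assembly factors stood at 1.01, 1.06 and 0.965 in CD8 T-like cells.

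The pathways that feed the chain differed between the classes. The tricarboxylic acid cycle stood at 1.01, 0.910 and 1.03 of IgG in CD8 T-like cells, with none of 16 genes called in the 3 comparisons. In macrophages and monocytes it stood at 0.850, 0.973 and 1.00, and none of 15 genes was higher and 4 were lower with anti-PD-1, beside those same shares of all genes. Among the 4 were Idh2 (40.1 to 19.0 CPM) and Fh1 (49.7 to 31.7 CPM), enzymes of the cycle. Fatty acid oxidation genes in CD8 T-like cells stood at 1.26, 0.901 and 1.32 of IgG. Etfb, which passes electrons from fatty acid oxidation towards the chain, was at 149 CPM with IgG, 267 with anti-PD-1 and 237 with the combination, and Acadl, a fatty acyl-CoA dehydrogenase, at 162, 233 and 260 CPM. Glycolysis genes stood at 1.22, 1.06 and 1.33 of IgG, with 9, 1 and 10 genes higher and 2, 0 and 0 lower of 14, 13 and 14 tested, where the shares of all genes are those given for the mitochondrially encoded subunits. The nuclear respiratory chain list itself stood at 0.993, 1.03 and 0.947 in the same cells.

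Lists of other transcripts moved beside these values. Cytosolic ribosomal proteins stood at 0.924, 1.05 and 0.856 of IgG in CD8 T-like cells and at 0.783, 1.08 and 0.852 in macrophages and monocytes. Genes of dissociation stress stood at 0.817, 1.16 and 0.892 and those of cell division at 1.17, 1.04 and 1.12 in CD8 T-like cells. Melanoma transcripts stood at 0.597, 0.548 and 0.435 of IgG in macrophages and monocytes. Their part in the members' values was not tested.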

How the data were processed

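Cells from 4 tumour preparations were profiled on the 10x Genomics Chromium platform, 1 library per treatment. The values the authors deposited are raw counts of UMIs for each gene in each barcode, not normalised; a UMI marks an original RNA molecule. Cell Ranger 3.1.0, the build mm10 and FastQC are named in the submitters' processing notes; the gene annotation is not given in the sources used here, nor is FastQC's version.

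Members and lists were chosen with earlier results of these data known. Kept cells had at least 300 genes, no more than 10% of UMIs from mitochondrial genes and no more than 60000 UMIs, and the highest Scrublet scores were removed as likely doublets at 0.8% per 1000 cells (717, 219, 377 and 154 cells). Clustering used 2000 variable genes, 30 components, 20 neighbours and Leiden resolution 1 (Python 3.11.15, scanpy 1.11.5, leidenalg 0.10.2), with 3 members among the variable genes. The 22 clusters, and 15 of T and NK cells, were named from marker lists; the thresholds for naming were chosen with the data in view. The UMIs of a class were summed in each library and scaled to CPM, with exact Poisson, binomial and conditional intervals at 95% (scipy 1.17.1). Genes that reached 20 CPM in 1 library of a pair were called when at least 25% above or 20% below. The rule was tried on simulated counts that held counting error only and folds well beyond the mark. Folds near the mark and variation between cells, mice or libraries were not simulated. A count of 0 was taken to allow up to 3 counts.

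Members were named by rule: the 2 with the highest mean level in CD8 T-like cells per complex, the 2 higher and 2 lower with the interval bound farthest from 1 in each of 5 comparisons, the Sdh genes and paralogous forms; others were singled out after their values were seen. Transcript lengths are those of principal transcripts in GENCODE M21, and promoters are RefSeq windows. Alternatives are given in the closing section; those on transcript length and on the naive-like cluster were chosen after seeing the data.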

Additional observations from a re-analysis of the deposited data

How the results depend on the processing

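Values follow in the order of each treatment against IgG, with the single antibodies first (anti-PD-1, then anti-PSGL-1), then combination against anti-PD-1 and against anti-PSGL-1, for CD8 T-like cells and then for macrophages and monocytes (myeloid). Without mitochondrially encoded and ribosomal protein genes in the total the list ratios were 0.959, 1.05, 0.886, 0.924 and 0.847 in CD8 cells and 0.841, 1.10, 0.883, 1.05 and 0.804 in myeloid cells. Centred on the median of all genes the list ratios were 0.977, 1.06, 0.918, 0.939 and 0.861 in CD8 cells and 0.877, 1.09, 0.880, 1.01 and 0.804 in myeloid cells. With every cell thinned to 2000 UMIs the list ratios were 1.03, 1.05, 1.00, 0.972 and 0.952 in CD8 cells and 0.875, 1.08, 0.926, 1.06 and 0.857 in myeloid cells. Without cells holding Mki67 or Top2a the list ratios were 1.04, 1.03, 0.996, 0.962 and 0.966 in CD8 cells and 0.886, 1.09, 0.913, 1.03 and 0.840 in myeloid cells. With marker gates in place of clusters the list ratios were 0.989, 1.02, 0.949, 0.960 and 0.932 in CD8 cells and 0.881, 1.08, 0.903, 1.02 and 0.835 in myeloid cells. With members left out of the variable genes the list ratios were 0.994, 1.03, 0.947, 0.952 and 0.92 in CD8 cells and 0.881, 1.08, 0.917, 1.04 and 0.849 in myeloid cells. At no more than 5% mitochondrial UMIs the list ratios were 0.991, 1.03, 0.944, 0.952 and 0.921 in CD8 cells and 0.884, 1.08, 0.908, 1.03 and 0.840 in myeloid cells. As the median member the list ratios were 1.01, 0.966, 0.968, 0.956 and 1.02 in CD8 cells and 0.888, 1.01, 0.928, 1.06 and 0.949 in myeloid cells. Without Cox4i1, the member with the most UMIs, the list ratios were 0.995, 1.03, 0.946, 0.951 and 0.914 in CD8 cells and 0.885, 1.09, 0.911, 1.03 and 0.835 in myeloid cells. Centred by transcript length (median member) the list ratios were 0.997, 0.982, 0.977, 0.974 and 1.03 in CD8 cells and 0.979, 1.03, 1.00, 1.03 and 0.985 in myeloid cells. Without members below 600 bases the list ratios were 1.03, 0.950, 1.01, 0.982 and 1.06 in CD8 cells and 0.898, 0.989, 0.959, 1.07 and 0.97 in myeloid cells. Without the naive-like CD8 cluster the list ratios were 0.955, 1.00, 0.904, 0.946 and 0.901 in CD8 cells.

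Totals of members called at the 25% mark, higher and lower together, were 4, 9, 7, 3 and 33 in CD8 cells and 12, 18, 7, 6 and 27 in myeloid cells. The shares of all genes given in the report belong to these totals. Totals under the alternatives that follow stand without such a share, so they are not read against all genes. At 1.5-fold they were 2, 0, 1, 0 and 11 in CD8 cells and 1, 0, 0, 0 and 15 in myeloid cells. Without mitochondrially encoded and ribosomal protein genes in the total they were 6, 11, 16, 5 and 26 in CD8 cells and 24, 17, 11, 7 and 34 in myeloid cells. Centred on the median of all genes they were 12, 18, 14, 2 and 34 in myeloid cells. With every cell thinned to 2000 UMIs they were 8, 14, 11, 6 and 36 in CD8 cells and 16, 18, 8, 11 and 31 in myeloid cells. Without cells holding Mki67 or Top2a they were 9, 12, 8, 8 and 36 in CD8 cells. With marker gates in place of clusters they were 4, 7, 6, 0 and 35 in CD8 cells. Centred by transcript length (median member) they were 4, 7, 3, 2 and 18 in CD8 cells and 5, 8, 1, 4 and 19 in myeloid cells. Without members below 600 bases they were 1, 3, 1, 0 and 18 in CD8 cells and 6, 5, 1, 6 and 11 in myeloid cells. Without the naive-like CD8 cluster they were 6, 8, 14, 3 and 28 in CD8 cells. With no minimum beyond 1 UMI in each library they were 6, 11, 10, 5 and 37 in CD8 cells and 18, 23, 12, 12 and 31 in myeloid cells. Thinned first, dividing over other cells gave 1.17, 1.09, 1.14 and 1.06 in CD8 and 1.20, 1.15, 1.20 and 1.28 in myeloid cells in the order of the report. Of 380 recomputed log2 ratios of named members, 289 stayed within the counting interval and 91 left it. None of the named members called at the 25% mark changed sign. Called members not named for a comparison were not followed in this way. Changes of sign among named members short of that mark were not counted. The list ratio fell on the other side of 1 in 14 of 125 alternatives, 12 of them in CD8 T-like cells; where leaving out members or cells does not show the cause by construction, the cause was not tested.

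No paired analysis was possible because each treatment has 1 library and the labels carry no replicate numbers. The number of mice behind a library is not stated, so every difference between treatments compares 4 libraries. Depth per cell differed more than 2-fold between the IgG and combination libraries, and cells were weighted by their UMIs. The list ratios that changed side all lay within 10% of 1. A level near 20 CPM rests on few UMIs in the small classes.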

Other observations

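Other dendritic and B cells were described by their level only. The members made up 2.23% to 2.41% of UMIs in cDC1-like cells, 2.06% to 2.44% in cDC2-like cells and 1.5% to 1.66% in B-like cells over the 4 libraries.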
